A study of Mus musculus with 22 samples.

Results

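Zinc export, import and storage in β-cells were followed through 9 zinc transporters and metallothioneins, chosen by name: the exporters Slc30a8, Slc30a1, Slc30a5 and Slc30a7, the importers Slc39a6, Slc39a7 and Slc39a14, and the metallothioneins Mt1 and Mt2. They were found by symbol among the 52327 genes of the count table, and all 9 were among the 14064 genes that passed the low-count filter of the test. The fewest counts of any of them in a library were 14, for Slc30a1. A further 21 genes of the same families, listed by function, served as the rest of the pathway. The RNA came from β-cells that were isolated by flow sorting, with 1 library from each of 22 male mice. The genotype in the labels was GluDTR+, SstDTR htz and PpyDTR htz in every mouse, so controls carried the same alleles of the diphtheria toxin (DT) receptor, aimed at glucagon-, somatostatin- and pancreatic polypeptide-producing cells. All mice were 3 months old, on a mixed background, and were taken 1 month after ablation. The 4 groups were control mice fasted for 8 h (fasted control, n = 5), DT-treated mice fasted for 8 h (fasted DT, n = 6), control mice refed for 2 h after the fast (refed control, n = 5) and DT-treated mice refed for 2 h (refed DT, n = 6). What the control mice were given, and how β-cells were marked for sorting, is not given in the sources used here.

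Insulin granules of β-cells hold insulin as crystals of hexamers with zinc, so these cells move large amounts of zinc into the secretory pathway and lose it again with each round of secretion. SLC30 proteins (ZnT) carry zinc out of the cytosol, into organelles or out of the cell, and SLC39 proteins (ZIP) carry it into the cytosol. Metallothioneins are small cysteine-rich proteins that bind cytosolic zinc, and the zinc-sensing transcription factor MTF-1 acts on their genes and on Slc30a1 through metal response elements.

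The metallothionein coding sequences are shown because the clustered cysteines are what binds zinc, and because both genes were among those that changed with feeding. They were read from GENCODE transcripts of GRCm38, 5′ to 3′, with cysteine codons in capitals.
Mt1: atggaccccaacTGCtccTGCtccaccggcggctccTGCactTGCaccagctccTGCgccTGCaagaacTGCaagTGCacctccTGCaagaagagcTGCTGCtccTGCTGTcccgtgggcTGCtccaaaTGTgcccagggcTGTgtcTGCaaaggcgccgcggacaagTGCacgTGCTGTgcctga
Mt2: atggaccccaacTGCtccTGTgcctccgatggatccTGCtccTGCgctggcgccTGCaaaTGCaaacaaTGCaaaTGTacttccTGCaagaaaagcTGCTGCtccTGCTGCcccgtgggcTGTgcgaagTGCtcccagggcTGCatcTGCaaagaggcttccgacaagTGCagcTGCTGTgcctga
Each holds 61 codons before the stop, of which 20 (32.8%) encode cysteine, and all 20 cysteine codons lie at the same positions in both genes. The sequences are identical at 148 of 186 bases (79.6%), with a longest identical run of 20 bases. That run is shorter than the single-end reads of these libraries.

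The 250 bases upstream of the RefSeq start sites are shown for the 3 members that are textbook targets of MTF-1. Capitals mark matches to the core of the metal response element, searched on both strands as TGCACNC and TGCGCNC. Windows are from RefSeq on GRCm38.p6, all on the + strand, for Mt1 at chr8:94178839-94179088, for Mt2 at chr8:94172368-94172617 and for Slc30a1 at chr1:191906531-191906780.
Mt1: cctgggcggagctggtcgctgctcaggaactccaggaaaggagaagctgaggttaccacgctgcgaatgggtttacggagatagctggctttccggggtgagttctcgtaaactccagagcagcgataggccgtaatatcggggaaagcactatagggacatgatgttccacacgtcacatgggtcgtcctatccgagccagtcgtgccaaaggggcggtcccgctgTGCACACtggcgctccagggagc
Mt2: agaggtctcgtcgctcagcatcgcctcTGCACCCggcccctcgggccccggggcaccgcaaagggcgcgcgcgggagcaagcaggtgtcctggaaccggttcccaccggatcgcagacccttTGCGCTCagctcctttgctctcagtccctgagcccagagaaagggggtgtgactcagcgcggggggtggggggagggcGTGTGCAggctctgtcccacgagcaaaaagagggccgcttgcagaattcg
Slc30a1: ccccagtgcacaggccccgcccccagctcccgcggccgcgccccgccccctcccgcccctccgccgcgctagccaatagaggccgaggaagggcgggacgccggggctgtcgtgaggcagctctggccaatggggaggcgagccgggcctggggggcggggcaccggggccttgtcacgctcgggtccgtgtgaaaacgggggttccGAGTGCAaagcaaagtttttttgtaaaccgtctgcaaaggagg
The Mt2 window held 3 matches, whose first bases lie 223, 128 and 50 bases before the start. The Mt1 window held 1 match, 23 bases before the start, and the Slc30a1 window 1 match, 43 bases before it. Of 32851 windows of the same length, 21.4% held at least 1 match and 1.26% held at least 3. RefSeq windows were matched for 6 of the 9 members, and the other 3 windows searched held 1 match (Slc30a5) and 0 matches (Slc30a7, Slc39a7). GENCODE also lists Mt1 transcripts that start 123 and 153 bases downstream of the window, and its Mt2 transcripts start 47 and 243 bases downstream of theirs, so distances from the start depend on the annotation and the bases upstream of these starts lie partly outside the windows. A match describes letters only and says nothing of binding.

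Libraries held between 16584117 and 24988880 counts, of which the insulin genes took 40.3% to 69.4%. Refed DT mouse 13 stood apart before any comparison: insulin took 69.4% of its counts, and it had counts in 15863 genes against 17447 to 19284 in the other libraries. Its scaling factor was 0.566. On the scaled library size, its mitochondrially encoded transcripts summed to 20380 CPM against 4153 to 12500 CPM elsewhere. That factor raises every CPM value of mouse 13, so that its 10 β-cell markers summed to 1285000 CPM. Ranks of its CPM values among the mice can therefore depend on the scaling. The median correlation of mouse 13 with other libraries was the lowest at 0.906. All 10 β-cell markers had counts in every library, and the acinar marker list was present in every library, with sums from 91.42 to 43490 CPM. CPM, the counts scaled to a common library size, is the unit of every level. The glucagon gene Gcg had medians of 77.4 and 158 CPM in fasted and refed control mice and of 0.146 and 0.461 CPM in fasted and refed DT mice. For the somatostatin gene Sst the medians were 30.3 and 56.0 CPM in control and 0.0475 and 0.0496 CPM in DT mice, in the same order. For the pancreatic polypeptide gene Ppy they were 10.6 and 31.0 CPM in control and 3.45 and 13.5 CPM in DT mice. Ppy ranges overlapped between control and DT mice in both feeding states, and Ppy passed in no DT comparison. Marker sums lay between 312.8 and 774.5 CPM for α-cells, 4.049 and 83.68 for δ-cells, 284.5 and 507.1 for ductal cells, 0.8148 and 6.992 for endothelial cells, 8.951 and 475.1 for immune cells and 0 and 17.63 for stromal cells. The γ-cell list, Ppy alone, lay between 1.037 and 126.1 CPM. Unlike Gcg, the α-cell sum was not lower in refed DT mice, with a median of 691.5 CPM against 573.7 CPM in refed control mice. In fasted mice its medians were 424 CPM with DT and 506.5 CPM in controls. In bulk libraries such as these, fewer cells of a type and less RNA per cell cannot be told apart.

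Set against transcript length, the 9 genes spanned more than 3 orders of magnitude, from Mt1 at a median of 1437 CPM per kilobase over the 22 mice to Slc30a1 at 0.568. Slc30a8, the granule transporter, followed Mt1 at 437 CPM per kilobase, then Mt2 at 49.8, Slc30a5 at 28.1, Slc39a6 at 11.03, Slc30a7 at 4.51, Slc39a7 at 4.26 and Slc39a14 at 3.45. The place of Mt2 is uncertain, since 432 of its 588 exonic bases overlap an antisense gene and the strand setting of the counting is not stated. The level of Slc39a7 is uncertain under any strand setting, since 2084 of its 2584 exonic bases are shared with a same-strand transcript. With all annotated exons as the length, Slc30a5 lay at 12.3 CPM per kilobase. By mean CPM without regard to length, Mt1 ranked 18th and Slc30a8 31st of the 14064 tested genes. Mt1 lay above Slc30a8 in all 22 mice on the per-kilobase scale, and the ranges did not overlap in any group. That separation depends on the length used for Mt1, 549 bases for its principal transcript and 1246 bases for all its annotated exons. By exon length the medians of Mt1 and Slc30a8 were 633 and 437 CPM per kilobase. In CPM without regard to length, the median of Slc30a8 was the higher (861 against 789 CPM). Slc30a8 and Mt2 overlapped in refed DT mice, where Mt2 was above Slc30a8 in mouse 13 (295.1 against 272.2 CPM per kilobase), and in no other group. Mt2 and Slc30a5 overlapped in the refed groups and not in the fasted groups. Slc30a7, Slc39a7 and Slc39a14 overlapped with their neighbour in this order in all 4 groups, so their order is not resolved. Slc39a14 and Slc30a1 overlapped in fasted DT mice and in no other group.

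**Figure D1:**
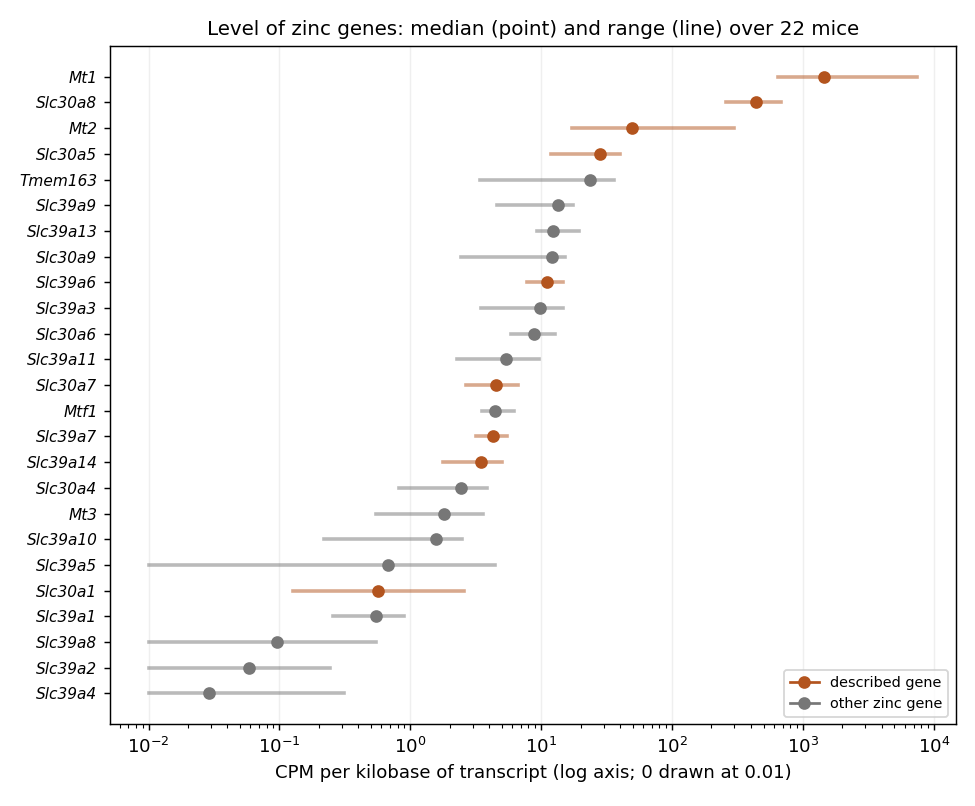
Levels of the 9 described genes and of other zinc genes in CPM per kilobase of principal transcript (log axis), as the median (point) and range (line) over 22 mice. Of the 21 other zinc genes, only those with a median above 0 are drawn. The medians of Mt1 (1437) and Slc30a8 (437) lie above those of all other genes shown, and Slc30a1 (0.568) is the lowest of the 9.

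Of the 21 other zinc genes, 14 were tested. The highest per kilobase were Tmem163, a zinc-transporting membrane protein, at 23.7 CPM per kilobase, Slc39a9, an importer of the Golgi, at 13.5, and Slc39a13, an importer of the early secretory pathway, at 12.3. Slc30a3, Slc30a10, Slc39a12 and Mt4 had 0 counts in all 22 libraries, where 3 counts would have been 0.120 to 0.274 CPM.

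After refeeding, genes of zinc export, import and storage moved in both directions. In control mice, 4 of the 9 genes passed the test (edgeR quasi-likelihood test, Benjamini-Hochberg adjusted p under 0.05 over all 14064 genes): Slc30a7 was higher and Slc30a8, Mt1 and Mt2 were lower after refeeding. The background was high, since 23.3% of all tested genes passed, 10.9% higher and 12.3% lower. In DT mice 2 of 9 passed, Slc39a14 higher and Slc30a8 lower, against 24.4% of all genes (10.8% higher, 13.5% lower). In the average of both treatments 6 of 9 passed, Slc30a5, Slc30a7 and Slc39a14 higher and Slc30a8, Mt1 and Mt2 lower, against 38.9% of all genes (17.2% higher, 21.7% lower). The median log2 fold change of the 9 genes was −0.04 in control and −0.14 in DT mice, beside −0.04 and −0.06 over all genes. The comparisons within control and within DT mice share no mice, whereas the average uses both. Acinar markers moved alongside: all 16 had values above 0 for refeeding in control mice (median log2 fold change 1.03) and in DT mice (1.297), though 0 of 16 passed the test. The median acinar sum was 5509 CPM in fasted and 14190 CPM in refed control mice, and 2892 and 10872 CPM in fasted and refed DT mice. With that sum as a covariate, 4 of 9 members passed in control mice, 2 in DT mice and 6 in the average, each in the direction given above.

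**Figure D2:**
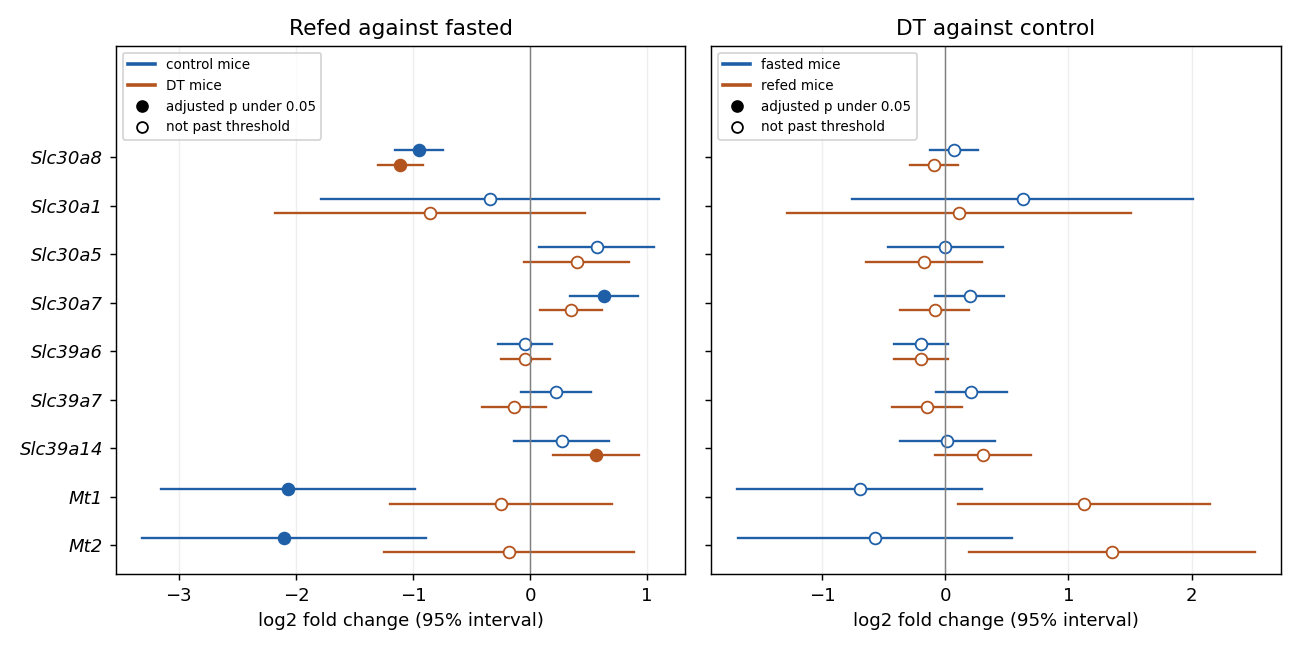
Log2 fold changes of the 9 genes with 95% intervals for DT against control and for refed against fasted mice, filled where the edgeR adjusted p was under 0.05. All DT points are open, and Slc30a8 is filled and near −1 for refeeding in both control (−0.95) and DT mice (−1.11).

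Slc30a8 (ZnT8, chromosome 15, 52295553 to 52335798, + strand) encodes the transporter that loads zinc into insulin granules. In fasted control mice its level was 1117, 1027, 1022, 1259 and 1342 CPM, and in refed control mice 699.4, 529, 565.8, 603.7 and 591.7 CPM. Fasted DT mice ranged from 1061 to 1339 CPM with a median of 1212, and refed DT mice from 511.3 to 672.5 CPM with a median of 542. Every fasted mouse thus lay above every refed mouse, the lowest fasted value being 1022 and the highest refed value 699.4 CPM. The mean fell from 1154 ± 142 (SD, n = 5) to 598 ± 63.5 CPM (n = 5) in control mice, a log2 fold change of −0.95 ± 0.11 (SE, edgeR adjusted p = 3.39e-06). In DT mice it fell from 1212 ± 111 to 562 ± 60.0 CPM (n = 6 each), a log2 fold change of −1.11 ± 0.10 (edgeR adjusted p = 1.08e-07). The level thus fell by 48.2% in control mice and fell by 53.6% in DT mice. The difference between these effects was −0.16 ± 0.14 (95% interval −0.44 to 0.12, edgeR adjusted p = 0.904).

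DT treatment left no called difference in Slc30a8. The log2 fold change of DT against control was 0.07 ± 0.10 in fasted mice (95% interval −0.13 to 0.27, edgeR adjusted p = 0.920) and −0.09 ± 0.10 in refed mice (−0.28 to 0.11, adjusted p = 0.814). Neither interval reaches the size of the feeding effect. The spread within each group was small, with coefficients of variation from 9.19% to 12.3%.

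**Figure D3:**
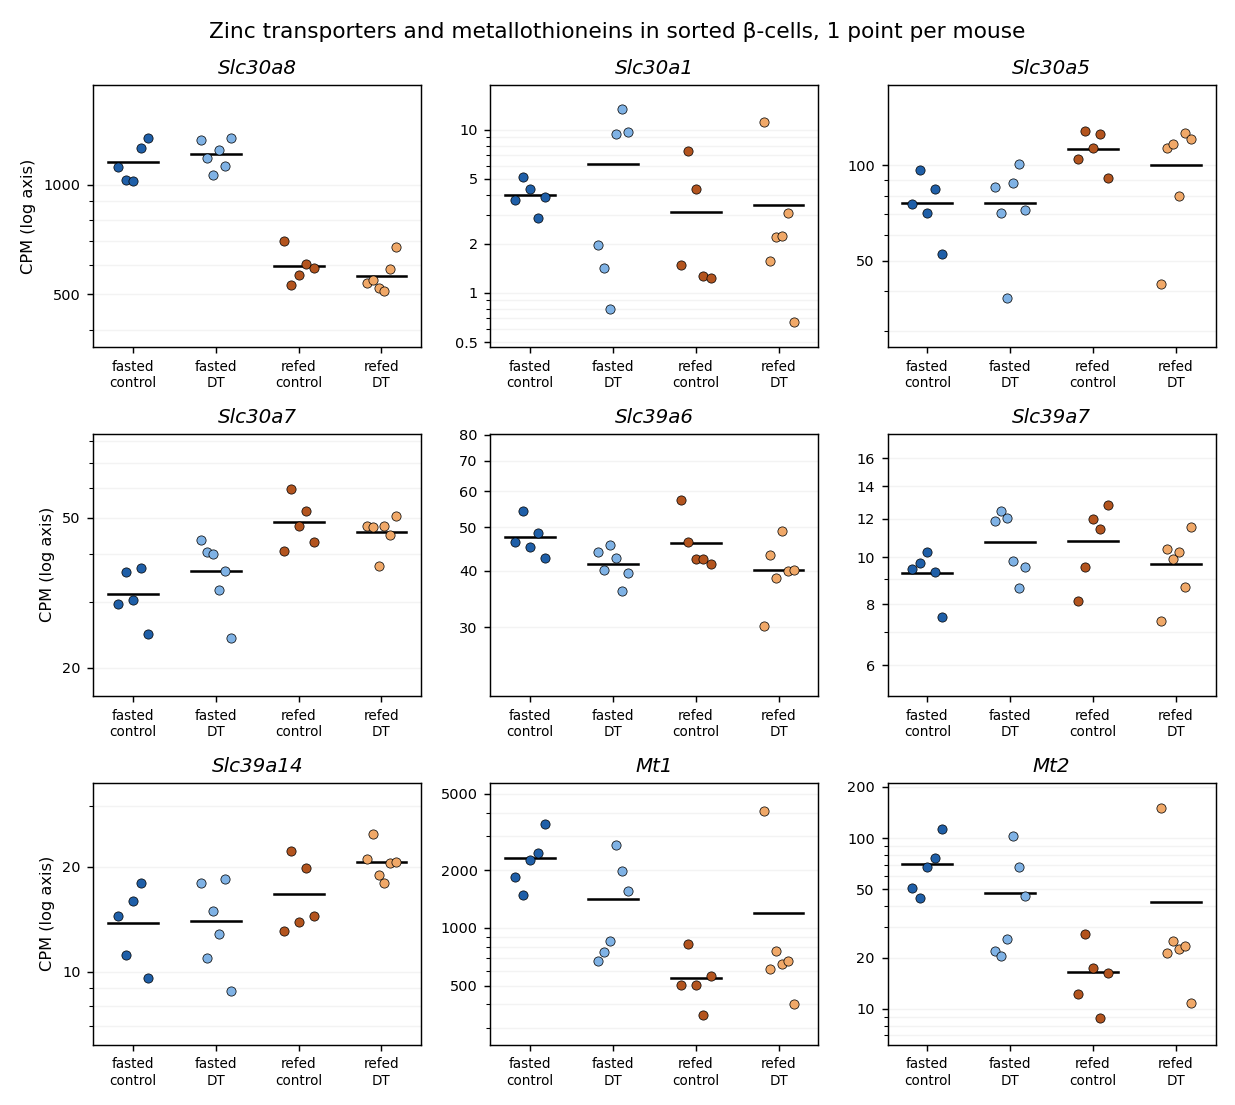
CPM (log axis) of each of the 9 genes in each mouse, by group, with 1 point per mouse. Slc30a8 separates all fasted (1022 to 1342 CPM) from all refed mice (511.3 to 699.4 CPM), while Mt1 in refed DT mouse 13 (4092 CPM) stands above the other refed mice.

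Slc30a1 (ZnT1, chromosome 1, 191906767 to 191913247, + strand) exports zinc across the plasma membrane and had the lowest level of the 7 transporters. Fasted control mice held 3.712, 5.122, 4.347, 2.889 and 3.874 CPM. In fasted DT mice the values were 1.965, 1.428 and 0.7941 CPM in mice 6, 7 and 8 and 9.471, 13.43 and 9.707 CPM in mice 9, 10 and 11, so that none lay within the range of the fasted control mice. Refed control mice held 1.479, 7.406, 4.307, 1.273 and 1.23 CPM, and refed DT mice ranged from 0.6655 to 11.15 CPM with a median of 2.21, the highest being mouse 13. The groups overlapped throughout. Coefficients of variation were 20.6% in fasted control mice and 86.4% to 110% in the other groups, above those of the other transporters in these 3 groups but not in fasted control mice. No comparison of Slc30a1 passed the test. DT against control was 0.63 ± 0.70 on the log2 scale in fasted mice (95% interval −0.75 to 2.01, edgeR adjusted p = 0.890) and refeeding was −0.34 ± 0.74 in control and −0.86 ± 0.68 in DT mice (adjusted p = 0.787 and 0.387). The DT value in refed mice, 0.11 ± 0.71, became −0.67 without refed DT mouse 13. Intervals of this width leave changes of 2-fold undecided. Slc30a1 shares 468 exonic bases with the antisense gene 1700034H15Rik, which held 0 to 9 counts per library.

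Slc30a5 (ZnT5, chromosome 13, 100802648 to 100833427, − strand) and Slc30a7 (ZnT7, chromosome 3, 115938973 to 116007406, − strand) move zinc into the early secretory pathway, where newly made proteins acquire it. Slc30a7 held 29.6, 35.97, 30.2, 36.84 and 24.62 CPM in fasted control mice and 40.91, 59.75, 47.74, 52.08 and 43.26 CPM in refed control mice, with every refed mouse above every fasted one. The log2 fold change was 0.63 ± 0.15 (edgeR adjusted p = 0.00352), an increase of 55.1%. In DT mice Slc30a7 ranged from 24.07 to 43.72 CPM when fasted (median 38.1) and from 37.24 to 50.63 CPM when refed (median 47.4), so the groups overlapped. The log2 fold change there was 0.35 ± 0.13 and did not pass (edgeR adjusted p = 0.0641). Slc30a7 passed in 7 of 30 alternative fits, among them DESeq2 (0.39), limma voom (0.38) and the fits without fasted control mouse 4 (0.40), fasted DT mouse 6 (0.41), refed DT mouse 13 (0.40) or refed DT mouse 15 (0.40). The interaction of −0.29 ± 0.20 was not called (edgeR adjusted p = 0.833), so the feeding effects in control and DT mice are not shown to differ.

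Slc30a5 pairs with ZnT6 in a heterodimer. Its values were 75.59, 96.44, 70.43, 83.86 and 52.57 CPM in fasted control mice and 104.7, 127.8, 113.5, 125.5 and 91.3 CPM in refed control mice, and only fasted control mouse 2 reached into the refed range. In DT mice it ranged from 38.12 to 100.9 CPM when fasted (median 78.8) and from 42.13 to 126.4 CPM when refed (median 115), with mouse 13 the lowest refed mouse. Neither treatment passed alone, with log2 fold changes of 0.57 ± 0.25 in control (edgeR adjusted p = 0.107) and 0.40 ± 0.23 in DT mice (adjusted p = 0.218). Their average was 0.48 ± 0.17 (edgeR adjusted p = 0.0272), or 39.9% higher after refeeding. That call was lost without fasted control mouse 5 (0.43). Without refed DT mouse 13, Slc30a5 passed in control (0.60, adjusted p = 0.0235) and in DT mice (0.63, adjusted p = 0.0145). Slc30a6, which encodes that partner ZnT6, passed in both treatments. It rose from 16.03 ± 1.57 to 22.4 ± 3.07 CPM in control mice (0.48 ± 0.15, edgeR adjusted p = 0.0269) and from 16.9 ± 3.90 to 23.7 ± 3.38 CPM in DT mice (0.49 ± 0.14, adjusted p = 0.0141). The Slc30a6 call in control mice did not hold when mouse 1 or 5 of the fasted or mouse 18 or 22 of the refed controls was left out (0.40 to 0.48), nor with no low-count filter (0.51, edgeR adjusted p = 0.0522). The call in DT mice was lost with only the groups compared (0.49, edgeR adjusted p = 0.0538).

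Among the importers, Slc39a14 (ZIP14, chromosome 14, 70303469 to 70351425, − strand), which also carries iron and manganese across the plasma membrane, ranged from 8.817 to 18.52 CPM in fasted DT mice (median 13.9) and from 17.99 to 24.94 CPM in refed DT mice (median 20.6). Fasted DT mice 6 and 10 reached into the refed range. The log2 fold change in DT mice was 0.56 ± 0.19 (edgeR adjusted p = 0.0330), an increase of 47.6%. The call was lost without any 1 of mice 7, 9, 11 and 14 (0.46 to 0.54). In control mice the values were 14.41, 11.18, 16.01, 18.04 and 9.581 CPM fasted and 13.06, 22.22, 13.89, 19.84 and 14.5 CPM refed, which overlapped broadly (0.27 ± 0.21, edgeR adjusted p = 0.379). The interaction was 0.29 ± 0.28 (edgeR adjusted p = 0.924), and the average of both treatments 0.42 ± 0.14 (adjusted p = 0.0216). The averaged call was lost without refed control mouse 18 (0.36).

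Slc39a6 (ZIP6, chromosome 18, 24579881 to 24603817, − strand), an importer of the plasma membrane, and Slc39a7 (ZIP7, chromosome 17, 34028269 to 34031682, − strand), which releases zinc from the endoplasmic reticulum, did not pass in any comparison. Slc39a6 held 46.37, 54.3, 45.24, 48.54 and 42.83 CPM in fasted control and 57.43, 46.44, 42.51, 42.61 and 41.51 CPM in refed control mice, and its refeeding value was −0.04 in both treatments, with SEs of 0.12 in control and 0.11 in DT mice (edgeR adjusted p = 0.840 and 0.826). The 95% intervals of −0.27 to 0.19 and −0.25 to 0.17 do not reach a 2-fold change. DT against control was −0.20 ± 0.11 for Slc39a6 in both feeding states. The average of −0.20 ± 0.08 did not pass after adjustment (edgeR adjusted p = 0.322). Refed DT mouse 13 held the lowest Slc39a6 level of all mice, 30.25 CPM. Without refed DT mice 13 and 20, the DT value was −0.22 in fasted and −0.09 in refed mice (edgeR adjusted p = 0.372 and 0.803). Slc39a7 lay between 7.403 and 12.82 CPM in all 22 mice, with refeeding values of 0.22 ± 0.15 in control and −0.14 ± 0.14 in DT mice (edgeR adjusted p = 0.330 and 0.501). It shares 2084 of its 2584 exonic bases with the same-strand transcript Gm20427, which held 0 to 17 counts per library. Reads in most of its exonic bases may therefore have been left unassigned, and its level may be understated.

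Mt1 (chromosome 8, 94179082 to 94180327, + strand) and Mt2 (chromosome 8, 94172664 to 94173568, + strand) were the members with the largest fall after refeeding in control mice. Mt1 held 1840, 1494, 2258, 2457 and 3467 CPM in fasted control mice and 502.8, 822.3, 506.7, 351.3 and 563.5 CPM in refed control mice. Mt2 held 51.1, 44.87, 67.55, 76.05 and 113.3 CPM against 12.21, 27.58, 17.41, 8.814 and 16.25 CPM. For both genes every fasted control mouse lay above every refed control mouse. The log2 fold change was −2.07 ± 0.55 for Mt1 (edgeR adjusted p = 0.00962) and −2.10 ± 0.62 for Mt2 (adjusted p = 0.0179). Mt1 fell by 76.1% and Mt2 fell by 76.7%. The Mt2 call was lost with no low-count filter (−2.08, adjusted p = 0.0503).

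In DT mice the fall was not called. Fasted DT mice held 671.7, 748.5 and 850.4 CPM of Mt1 in mice 6, 7 and 8 and 2710, 1992 and 1563 CPM in mice 9, 10 and 11, the first 3 below and the last 3 within the range of fasted control mice. Refed DT mouse 13 held 4092 CPM, the highest of all 22 mice on the scaled library size. Of its unscaled counts Mt1 took 0.232%, below fasted control mice 3, 4 and 5 (0.233%, 0.246% and 0.374%) and fasted DT mouse 9 (0.284%). The other refed DT mice held 611.9, 755.6, 647.6, 676.3 and 403.2 CPM, with shares of 0.0434% to 0.0814%. Fasted and refed DT mice overlapped, and the log2 fold change was −0.25 ± 0.49 for Mt1 (edgeR adjusted p = 0.756) and −0.18 ± 0.54 for Mt2 (adjusted p = 0.847). Without mouse 13 the values were −1.12 for Mt1 (edgeR adjusted p = 0.0154) and −1.13 for Mt2 (adjusted p = 0.0425), both called. Without mice 13 and 20, which had the highest mitochondrial sums (20380 and 12500 CPM), they were −0.997 (edgeR adjusted p = 0.0432) and −0.96 (adjusted p = 0.102). Mouse 20 also had the highest immune-cell sum (475.1 CPM). Fasted DT mouse 7 (349.7 CPM) and fasted control mouse 1 (178.2 CPM) had high immune-cell sums too and were kept in that fit. Among refed DT mice Mt2 followed the same order as Mt1, with 150.8 CPM in mouse 13 and 10.84 to 25.12 CPM in the other refed DT mice.

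Whether refeeding acted on Mt1 and Mt2 differently in control and DT mice was tested as an interaction. It was 1.82 ± 0.73 for Mt1 (edgeR adjusted p = 0.614) and 1.92 ± 0.81 for Mt2 (adjusted p = 0.666), so the effects are not shown to differ. These 2 were the members with an unadjusted p under 0.05 for the interaction, and 0 of 9 passed with edgeR, DESeq2 or limma voom. Without mouse 13 these values were 0.91 (edgeR adjusted p = 0.539) and 0.94 (adjusted p = 0.634). Of all genes, 0.00711% passed this test. The average feeding effect was −1.16 ± 0.36 for Mt1 (edgeR adjusted p = 0.0156) and −1.14 ± 0.41 for Mt2 (adjusted p = 0.0319). The Mt2 average lost its call in 10 of 29 alternative fits: with no low-count filter (−1.09), and on leaving out any 1 of fasted control mice 4 and 5, fasted DT mice 9 and 10, refed control mice 12 and 21, and refed DT mice 14, 15 and 16 (−1.09 to −0.95).

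The 9 genes showed no called DT effect. In fasted mice 0 of 9 passed with edgeR, DESeq2 or limma voom, and 0 had an unadjusted p under 0.05, against 0.0284% of all genes called (0.0213% higher, 0.00711% lower). In refed mice 0 of 9 passed with any of these tools, against 0.0356% of all genes (0.0213% higher, 0.0142% lower), and 2 had an unadjusted p under 0.05 in edgeR: Mt1 (1.12 ± 0.52, edgeR adjusted p = 0.482) and Mt2 (1.35 ± 0.59, adjusted p = 0.445). Without mouse 13 the refed DT values were 0.19 for Mt1 and 0.34 for Mt2. In the average of both feeding states 0 of 9 passed against 0.206% of all genes (0.107% higher, 0.0995% lower), and 1, Slc39a6, had an unadjusted p under 0.05. In fasted mice Mt1 was −0.70 ± 0.51 (95% interval −1.69 to 0.30) and Mt2 −0.57 ± 0.57 (−1.68 to 0.54). With the spread of these libraries, simulated 2-fold changes were recovered in 47.8% of randomly drawn genes for DT against control in fasted mice. That share covers genes of any level and is not the recovery for the 9 members, whose intervals run from narrow for Slc30a8 to wide for Slc30a1. A missing call does not show equal levels.

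Mt1 and Mt2 rose and fell together from mouse to mouse. Deviations of log2(CPM + 1) from the group means correlated with Pearson's r = 0.99 and Spearman's rho = 0.979 over 22 mice (permutation p = 1e-05 for each, the smallest that 100000 permutations within groups can give, adjusted p = 3e-05 over 3 relations). Without refed DT mouse 13 and fasted control mouse 5, the farthest from the median, r was 0.982. Within the groups r lay between 0.957 and 0.996. The ratio of Mt1 to Mt2 reads was 32.3 ± 4.0 (SD, n = 22) and ranged from 26.3 to 41.2. Mt2 shares 432 of its 588 exonic bases with the antisense gene Gm45774, which held 21 to 259 counts per library, and the strand setting of the counting is not stated, so this ratio cannot be read as relative expression.

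Mt1 and Slc30a1, both MTF-1 targets, also varied together, with r = 0.801 and rho = 0.746 (permutation p = 6e-04 and 0.00157, adjusted p = 9e-04 and 0.00235, n = 22). Without refed DT mouse 13 and fasted control mouse 5, r was 0.797. Within groups r was −0.495 in fasted and 0.729 in refed control mice, and 0.894 in fasted and 0.968 in refed DT mice. Fasted DT mice fell into separate low and high sets for both genes, mice 6 to 8 and mice 9 to 11. Without the fasted DT mice r was 0.777 but rho 0.459 (permutation adjusted p = 0.00963 and 0.113), and without these and mouse 13 r was 0.506 (permutation adjusted p = 0.106). The relation therefore rests on the fasted DT mice and mouse 13. It was also not particular to this pair. With group means removed, Slc30a1 had r = 0.916 with Furin, 0.913 with Rnf217 and 0.914 with Pkdcc, genes picked for their likeness to it. Slc39a7 went the other way, with r = −0.711 with Mt1 and −0.661 with Slc30a1. These values are descriptions, and the part of MTF-1 in the relation was not tested. Mt1 and Slc39a14, another gene named among the importers, had no relation that passed the test (r = −0.0305, rho = 0.00282, permutation adjusted p = 0.889 and 0.993).

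**Figure D4:**
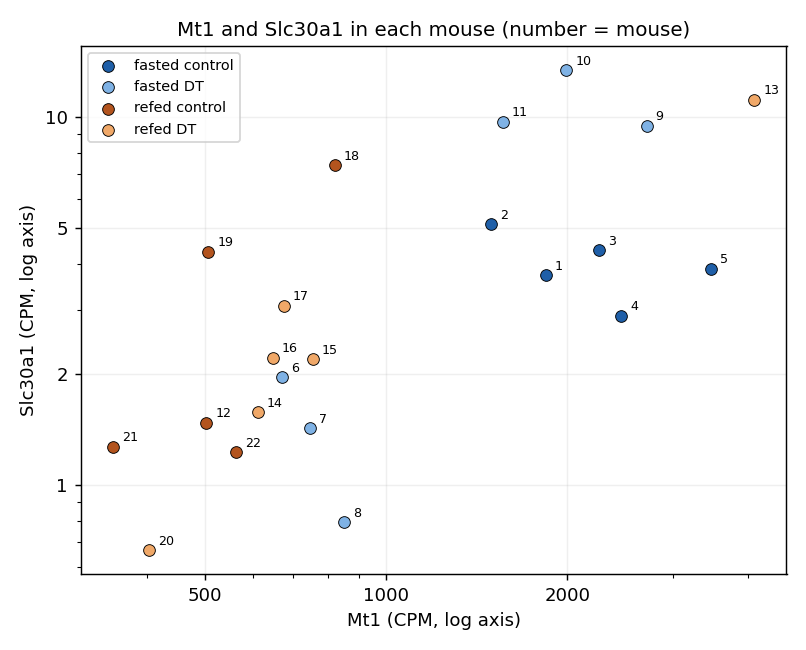
Mt1 against Slc30a1 in each of 22 mice (CPM, log axes), coloured by group and numbered by mouse. Fasted DT mice 6 to 8 lie low on both axes and mice 9 to 11 high, and refed DT mouse 13 (4092 and 11.15 CPM) lies apart from the other refed mice.

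Other measures of these mice are set beside the metallothionein values. In fasted DT mice the acinar marker sums were 23000, 8764 and 133.1 CPM in mice 6, 7 and 8 and 3439, 724.6 and 2344 CPM in mice 9, 10 and 11. The immune-cell sums were 92.85, 349.7 and 25.73 CPM in mice 6 to 8 and 32.97, 31.43 and 31.55 CPM in mice 9 to 11. Library totals were 19241257, 16584117 and 17235551 counts in mice 6, 7 and 8 and 21148701, 23488749 and 22723766 counts in mice 9, 10 and 11, so the mice low in Mt1 and Slc30a1 also had the smaller libraries of that group. In mouse 13 the acinar sum was 26010 and the immune-cell sum 33.54 CPM. The part of these measures, of depth and of insulin share in the metallothionein values was not tested. Metallothionein genes are also known to respond to glucocorticoids. Of 12 genes known to be induced by glucocorticoids, 11 were tested. In the refeeding comparison 1 was higher and 0 lower in control mice (median log2 fold change −0.23), against 23.3% of all genes called, and 3 were higher and 1 lower in DT mice (median −0.24), against 24.4% of all genes. Of these genes 0 passed for DT in either feeding state.

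Among the other zinc genes, calls came at about or below the share over all genes. Of the 14 other zinc genes tested, 3 were higher and 0 lower after refeeding in control mice (median 0.24), against 23.3% of all genes called in either direction. In DT mice 1 was higher and 1 lower (median 0.11), against 24.4% of all genes, and 0 passed in either DT comparison or in the interaction. In the average of both treatments 2 were higher, Slc30a6 and Slc39a13, and 1 lower, Slc39a3, against 38.9% of all genes. The averaged call of Slc39a13 was lost with acinar markers as a covariate (0.24, edgeR adjusted p = 0.0562). Slc39a13 (ZIP13) rose in control mice from 24.7 ± 1.38 to 35.6 ± 3.97 CPM (log2 fold change 0.53 ± 0.13, edgeR adjusted p = 0.00598), without overlap. Slc39a10 (ZIP10), an importer of the plasma membrane, rose from 3.86 ± 2.82 to 8.99 ± 2.66 CPM (1.23 ± 0.45, edgeR adjusted p = 0.0497). That call was close to the threshold and held in 10 of 30 alternative fits, and it was lost without any 1 of 17 of the 22 mice (1.00 to 1.39). Slc39a3 (ZIP3), another such importer, fell in DT mice from 42.8 ± 4.50 to 25.1 ± 7.48 CPM, without overlap (−0.77 ± 0.18, edgeR adjusted p = 0.00281), and passed in all 30 alternative fits. Mtf1, the zinc sensor, and Mt3, a metallothionein best known from brain, did not pass in any comparison, though without refed DT mouse 15 Mt3 passed for refeeding in DT mice (0.94, edgeR adjusted p = 0.0402) and in the average (0.61, adjusted p = 0.0426), and without mice 13 and 20 Mtf1 passed in the average (0.18, adjusted p = 0.0362).

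The genes whose log2 CPM most resembled that of a member over the 22 libraries are given as a description, with no test, since all points share library composition and the feeding contrast. For Slc30a8 they were Gm45805 (r = 0.955), 1810034E14Rik (0.949) and Klhl24 (0.943) among the 11709 genes compared, which left out the 9 members. With group means removed these values were 0.436, 0.330 and 0.176, so the likeness lay mostly between groups. For Slc30a5 they were Edem3 (0.953), Itprid2 (0.930) and Eif2b5 (0.915), and with group means removed the values were 0.967, 0.939 and 0.917. Edem3 encodes a factor of glycoprotein quality control in the endoplasmic reticulum, and Eif2b5 a subunit of the exchange factor for the translation initiation factor eIF2. For Slc30a7 they included Bet1 (0.897) and Dnajb9 (0.893), of which Bet1 encodes a SNARE protein of transport from the endoplasmic reticulum to the Golgi and Dnajb9 a co-chaperone of the endoplasmic reticulum. For Slc30a1 they were Furin (0.906), a protease of the secretory pathway, Rnf217 (0.892) and Pkdcc (0.889). For Mt1 they were Tmem192 (0.880), Tcf4 (0.864) and Hpcal1 (0.854), and for Mt2 Tmem35b (0.845), C030006K11Rik (0.841) and Mllt6 (0.840). The values were lower for Slc39a6 (0.784 for Abhd3), Slc39a7 (0.823 for Cenpc1) and Slc39a14 (0.774 for Nfya).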

How the data were processed

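β-cell RNA of 22 mice (total 16584117 to 24988880 counts per library) was analysed from the deposited table of read counts per gene, made by the authors. STAR 2.7.2b, HTSeq 0.9.1, DESeq2 1.28.1 and the build GRCm38.p6 are named in the submitters' processing notes, without parameters. Strand setting and annotation release are not given in the sources used here, and the table held 0 columns of no sample. Gene positions and lengths are from GENCODE on GRCm38. Each library came from a different mouse, so replicates were animals. Detection limits (3 counts) cover counting error only, since reads carried no molecular identifiers.

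Counts were fitted once in R 4.3.3 with edgeR 4.0.16 over all 22 libraries (filterByExpr by group, TMM scaling, robust quasi-likelihood F tests, a coefficient per group). Benjamini-Hochberg adjustment ran over 14064 genes, with a threshold of 0.05 and no minimum fold. CPM values were computed on TMM-scaled library sizes, and levels per kilobase use the principal transcript. SEs were derived from the F statistic, and 95% intervals are 1.96 SE to each side, so they include the spread between mice. Relations between genes used log2(CPM + 1), a pseudocount of 1, with group means removed. The fit was tested on simulated counts with known changes: of 4-fold changes, 74.2% were recovered for DT against control in fasted mice and 78.8% for refed against fasted control mice.

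The members, the gene lists (other zinc genes, glucocorticoid-induced genes, markers of cell types, mitochondrially encoded transcripts) and the tests were chosen with earlier results of these data known. Named genes are the 9 members, other zinc genes called in any of 7 comparisons or among the 3 highest per kilobase, and the 3 genes most like each member (not all of them are reported here). Gcg, Sst and Ppy were named as checks, and Mtf1 and Mt3 were named after their values were seen. Alternatives were DESeq2 1.42.0 size factors in edgeR, DESeq2, limma 3.58.1 voom, no low-count filter, library sizes without insulin genes, an acinar covariate, only the groups compared, and leaving out libraries. Fits without the fasted DT mice were added for the relations after seeing the data.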

Additional observations from a re-analysis of the deposited data

Results flagged for a closer look

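Within groups of 5 or 6 mice, a value was singled out where its gap to the nearest other mouse was large against the range of the group (Dixon's 95% criterion, on log2(CPM + 1)). Of 36 groups tested, 3 held such a mouse, and chance gives about 1 in 20. Mt1 in refed DT mouse 13 was 4092 CPM, and the next highest refed DT mouse held 755.6 CPM. Mt2 in the same mouse was 150.8 CPM, with 25.12 CPM in the next. Slc30a5 in fasted DT mouse 8 was 38.12 CPM, the lowest of that group, and the next lowest held 70.87 CPM. Its gap was 0.635 of the group's range on that log scale and 0.522 on the CPM scale, where it would not be singled out (critical value 0.625). On the CPM scale Slc30a1 in refed DT mouse 13 (11.15 CPM, gap 0.770 of the range) would be, beside Mt1 and Mt2.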

How the results depend on the processing

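No paired analysis was possible because each mouse number in the labels occurs once. Slc30a8 kept its direction and its call for refeeding under every alternative run. The count of members called for refeeding in DT mice was 2, and 4 without refed DT mice 13 and 20 (1 to 6 with 1 library left out). Counts over all genes moved for DT in fasted mice from 4 to 2 with DESeq2 size factors, 54 with DESeq2, 0 with no low-count filter, 0 with only the groups compared and 26 without mice 13 and 20 (0 to 19 with 1 library left out). In refed mice they moved from 5 to 94 with DESeq2, 1 with limma voom, 2 with only the groups compared, 175 without mice 13 and 20 and 10 with the acinar covariate (1 to 52 with 1 library left out). For the interaction they moved from 1 to 20 with DESeq2, 0 with limma voom and 14 without mice 13 and 20 (1 to 2 with 1 library left out). For the DT average they moved from 29 to 188 with DESeq2, 8 with no low-count filter and 123 without mice 13 and 20 (4 to 69 with 1 library left out). The cause of these shifts was not tested.

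Log2 fold changes that turned their direction were small or had wide errors, and none was called. For DT in fasted mice, Slc30a5 was −0.0118 with DESeq2 size factors, −0.0124 with DESeq2, −0.0203 with limma voom, −0.0212 with no filter, −0.00525 with only the groups compared and −0.0198 without mice 13 and 20, where Slc39a14 was −0.00245. For DT in refed mice, Slc30a1 was −0.199 with limma voom and −0.456 without mice 13 and 20. For the DT average with limma voom, Slc30a1 was −0.0446 and Mt1 −0.0971, and without mice 13 and 20 Mt1 was −0.210 and Mt2 −0.0505. For refeeding in DT mice, Slc39a6 was 0.0055 with DESeq2 size factors, 0.00955 with DESeq2, 0.0173 with no filter and 0.123 without mice 13 and 20, and its average was 0.00363 with no filter and 0.0591 without both mice.

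With 1 library left out, DT values ranged from −0.105 to 0.127 for Slc30a5 and −0.0917 to 0.140 for Slc39a14 in fasted mice, and from −0.674 to 0.705 for Slc30a1 and −0.250 to 0.000523 for Slc30a5 in refed mice. The DT average ranged from −0.0375 to 0.0215 for Slc30a8, −0.0392 to 0.666 for Slc30a1, −0.0137 to 0.0643 for Slc39a7, −0.270 to 0.310 for Mt1 and −0.131 to 0.524 for Mt2. Refeeding values of Slc39a6 ranged from −0.131 to 0.0133 in control mice, −0.106 to 0.100 in DT mice and −0.0846 to 0.0469 in the average. In DT mice Mt1 ranged from −1.12 to 0.0397 and Mt2 from −1.13 to 0.204, the highest values being those without fasted DT mouse 9 and the lowest those without refed DT mouse 13. The interaction ranged from −1.27 to 0.0778 for Slc30a1, −0.296 to 0.0201 for Slc30a5 and −0.0598 to 0.107 for Slc39a6. The relation of Mt1 with Slc30a1 was r = 0.506 without the fasted DT mice and mouse 13, and that of Mt1 with Slc39a14 was 0.0535 without the 2 farthest mice and 0.0172 without the fasted DT mice.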

Other observations

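Slc39a13 lay higher in every fasted DT mouse (28.77 to 37.83 CPM) than in any fasted control mouse (23.14 to 26.31 CPM), without a called difference. In refed mice its ranges overlapped, and no other zinc gene listed separated DT from control mice in either feeding state. It was picked after its values were seen. The share of all tested genes that separate in this way was not counted, so the separation is not read as a DT effect. Tmem163 varied widely between mice of a group, from 15.71 to 97.71 CPM in fasted control mice and from 11.91 to 103.5 CPM in fasted DT mice, where mice 6, 7 and 8 held 35.86, 17.91 and 11.91 CPM and mice 9, 10 and 11 held 103.5, 94.38 and 84.17 CPM. In fasted DT mice 6 to 8 Tmem163, Mt1, Mt2 and Slc30a1 were each below their values in mice 9 to 11. The same held for Slc30a4 (4.463 to 4.913 against 14.03 to 17.84 CPM) and Slc30a9 (13.98 to 49.18 against 71.91 to 80.02 CPM). Fasted control mice 4 and 5 went the other way, with the lowest Tmem163 of their group (32.06 and 15.71 CPM) and the highest Mt1 (2457 and 3467 CPM). These genes were set side by side after their values were seen, and the grouping of the mice was not tested.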
